A study of Mus musculus with 4 samples.

Results

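Glypicans, syndecans and biglycan are core proteins of proteoglycans, here followed as transcripts in mouse embryonic stem cells depleted of hnRNP K. The set holds 10 genes of 22138 in the deposited table: the glypicans Gpc1, Gpc2, Gpc3, Gpc4 and Gpc6, the syndecans Sdc1, Sdc2, Sdc3 and Sdc4, and biglycan (Bgn). The genes were selected on family membership with their RPKM values after control and Hnrnpk siRNA already known, so their difference between those groups is given as a description: no p-value is printed for them, and where the fit over all genes called them, the call is only counted. The TT2 line of embryonic stem cells, labelled female and of strain C57BL/6xCBA, was grown without feeders in medium with serum and LIF, the cytokine used to keep such cells undifferentiated. For knockdown they received control siRNA (n = 2) or siRNA against Hnrnpk (n = 2) at 100 nM and again at 50 nM after 24 hours, and RNA was taken about 72 hours after the second transfection. Knockdown by siRNA lowers a transcript and does not remove the gene; both groups went through both transfections. The series' design text calls the replicates biological, and no source used here says whether they were separate cultures. The p-values therefore set a difference against the spread between these libraries, pooled in part across genes. That spread may be partly technical.

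A proteoglycan is a core protein that carries long sulfated sugar chains. Glypicans are tied to the outer membrane leaflet by a lipid anchor and syndecans cross the membrane; both carry mainly heparan sulfate, which binds FGF, Wnt, BMP and Hedgehog proteins and presents them to their receptors. Biglycan is secreted into the matrix, belongs to the small leucine-rich proteoglycans and carries chondroitin or dermatan sulfate. In mouse embryonic stem cells heparan sulfate is known for its part in FGF signalling and in leaving the pluripotent state.

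The values were RPKM, reads per kilobase of transcript scaled to the mapped reads of the library, which allows levels of different genes to be compared per length. Columns summed to 359659 and 362836 RPKM after control siRNA and to 377825 and 390467 RPKM after Hnrnpk siRNA. The spacing of low values gave depths relative to control replicate 1 of 0.982, 0.888 and 0.878 for the other libraries; the number of reads behind a gene is not known. Hnrnpk itself stood at 236 and 226 RPKM in controls, against 68.0 and 70.5 RPKM after Hnrnpk depletion, in the direction of the labels. All 10 embryonic stem cell markers passed the filter on low values, and their summed level was 4018 to 4118 RPKM in controls, against 4779 to 5103 RPKM after Hnrnpk depletion. Of these markers 2 rose, Nanog and Dppa5a, and 4 fell, Sox2, Tdgf1, Utf1 and Lin28a. Without Dppa5a the sum was 2797 and 2741 RPKM, then 2615 and 2651 RPKM, in the same order. The summed level of 5 Y-linked genes was 0.893 to 1.01 RPKM over the 4 libraries.

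The sequence before the annotated start is shown for Bgn and Gpc3, which had the largest ratio of mean RPKM in each direction, because hnRNP K is known to bind C-rich strands such as the CT element of the Myc promoter. RefSeq (GRCm38.p6) gave a promoter for 7 of the 10 genes; Gpc1, Gpc6 and Sdc2 had no entry. The 250 bases upstream of the start are printed for Gpc3, on the minus strand at chrX:52613975-52614224, and for Bgn, on the plus strand at chrX:73483351-73483600. Sdc4, with the largest log2 change, is not printed because its window lies within its GENCODE gene. Capitals mark each CCCTCC, the core of the CT element, or its reverse complement; copies that overlap run together.

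Gpc3: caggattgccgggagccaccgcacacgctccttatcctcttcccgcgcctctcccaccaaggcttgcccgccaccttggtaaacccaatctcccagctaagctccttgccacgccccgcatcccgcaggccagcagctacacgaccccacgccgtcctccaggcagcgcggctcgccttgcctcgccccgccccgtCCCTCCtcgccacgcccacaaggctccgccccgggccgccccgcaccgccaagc
Bgn: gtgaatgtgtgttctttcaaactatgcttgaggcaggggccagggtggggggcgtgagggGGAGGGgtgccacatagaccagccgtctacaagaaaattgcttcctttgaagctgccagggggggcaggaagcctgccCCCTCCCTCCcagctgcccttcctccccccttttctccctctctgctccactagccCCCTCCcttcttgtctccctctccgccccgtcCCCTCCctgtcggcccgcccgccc

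The Bgn window holds 5 copies of CCCTCC counted on both strands and the Gpc3 window 1. Among the other matched genes, Gpc4 has 2 and Sdc3 has 1, and Gpc2, Sdc1 and Sdc4 have none, so 4 of 7 hold the motif against 35.2% of 32851 RefSeq promoter windows of the same length. All 7 hold GGGCGG, the GC box, on either strand, against 32.7% of windows, and none holds TATAAA, found in 12.4%. Their GC content was 64.4% to 76.4% (median of all windows 52.4%). CACGTG, the E-box, was in none of the 7 and in 6.0% of windows. Read on the other strand CCCTCC ends in GGG and can share those letters with a GC box, and both motifs are made mostly of G and C. Of the 7 windows, 4 (Gpc2, Gpc4, Sdc1 and Sdc4) overlap their own GENCODE gene, and the counts above include them. A match describes letters, not binding.

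After Hnrnpk siRNA, Sdc4, Gpc4 and Bgn stood higher, Gpc3, Gpc1 and Sdc1 stood lower, and Sdc2, Sdc3 and Gpc2 differed little. Gpc6 was at most 0.0689 RPKM in all libraries. The mean RPKM of Bgn was 8.22 times, that of Sdc4 3.65 times and that of Gpc4 2.53 times the control mean. In the other direction the control mean was 2.87 times the Hnrnpk siRNA mean for Gpc3, 2.48 times for Gpc1 and 1.57 times for Sdc1. Each family therefore held members on both sides.

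A limma fit of log2(RPKM + 0.5) took in the 12486 genes whose 4 libraries averaged 0.5 RPKM or more, and calls were made below a Benjamini-Hochberg adjusted p of 0.05. Of the 10 genes, 9 passed that filter, Bgn only through its level after Hnrnpk siRNA, and Gpc6 did not. In this fit 3 of the 9 were called higher and 3 lower, where 67.2% of all genes were called, 32.2% higher and 35.0% lower. Changes of 1 or more on the log2 scale were seen in 3 of the 9 upward and 2 downward (4.0% and 4.52% of all genes tested). The Hnrnpk siRNA libraries lay both above or both below the control libraries for 7 of the 9, and for 84.7% of all genes tested. Because the same contrast was in view when the genes were chosen, these counts describe the set and show nothing further about it. The median log2 change was -0.0047 over the 9 genes and -0.015 over all genes tested.

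**Figure D1:**
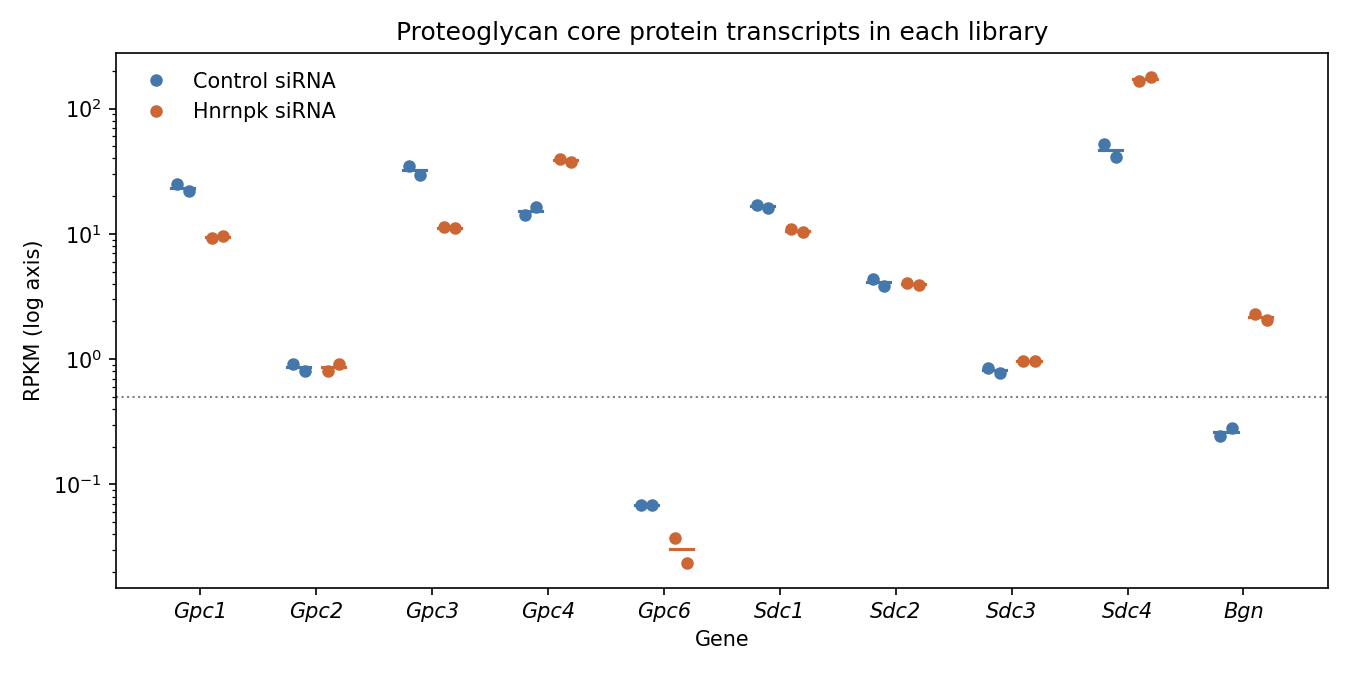
RPKM (log axis) of each of the 10 genes in the 2 control (blue) and 2 Hnrnpk siRNA (orange) libraries; points are libraries, short lines are group means and the dotted line marks 0.5 RPKM. Sdc4, Gpc4 and Bgn lie higher and Gpc3, Gpc1 and Sdc1 lower after Hnrnpk siRNA, with no overlap between groups.

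Among the glypicans, Gpc3 had the highest level in controls and Gpc4 after Hnrnpk siRNA. Gpc3, whose loss in humans causes an overgrowth syndrome and whose product restrains Hedgehog signalling, was at 34.9 and 29.6 RPKM in controls, against 11.3 and 11.2 RPKM after Hnrnpk depletion. Its log2 change was -1.48 (SE 0.0828). Both treated libraries lay at about the same level, well below the lower control. Gpc4, a modulator of Wnt signalling in embryonic stem cells, was at 14.1 and 16.5 RPKM in controls, against 39.5 and 37.8 RPKM after Hnrnpk siRNA. Its log2 change was 1.32 (SE 0.0811), with both treated libraries above both controls.

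Gpc1, a broadly expressed co-receptor for FGF, was at 24.8 and 22.0 RPKM in controls, against 9.26 and 9.59 RPKM after Hnrnpk depletion. The log2 change was -1.26 (SE 0.0766), and the groups did not overlap. In GENCODE M21, 977 exonic bases of Gpc1 overlap Ankmy1 on the opposite strand. Ankmy1 was at 0.655 and 0.543 RPKM in controls, against 0.240 and 0.214 RPKM after Hnrnpk siRNA, far below Gpc1; no source used here says whether counting used strand.

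Gpc2, the glypican of developing neurons, was at 0.919 and 0.807 RPKM in controls, against 0.80 and 0.917 RPKM after Hnrnpk siRNA. These values overlap, with a log2 change of -0.0047 (SE 0.10). Of the 2586 bases of its longest transcript, 2377 are shared with the overlapping gene Gm43720, so its level is uncertain. Gpc6, a relative of Gpc4, was at 0.0688 and 0.0689 RPKM in controls, against 0.0374 and 0.0235 RPKM after Hnrnpk siRNA, too low to be compared here. Gpc5, the remaining glypican and not among the 10 genes, was also low, at 0.0179 and 0.0118 RPKM and at 0.0524 and 0.0386 RPKM in the same order, below Gpc6 in controls and above it after Hnrnpk siRNA.

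The summed RPKM of the 5 glypicans was 74.7 and 69.0 in controls, against 60.9 and 59.5 after depletion. Within that sum the make-up turned over. Gpc3 held 44.8% ± 2.64 (SD, n = 2) of it in controls and 18.7% ± 0.145 in depleted cells, and Gpc4 held 21.3% ± 3.58 and 64.2% ± 0.930. The share of Gpc1 was 32.5% ± 0.904 and 15.7% ± 0.640 (SD, n = 2 each). The most abundant glypican transcript was thus Gpc3 in both control libraries and Gpc4 in both Hnrnpk siRNA libraries.

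**Figure D2:**
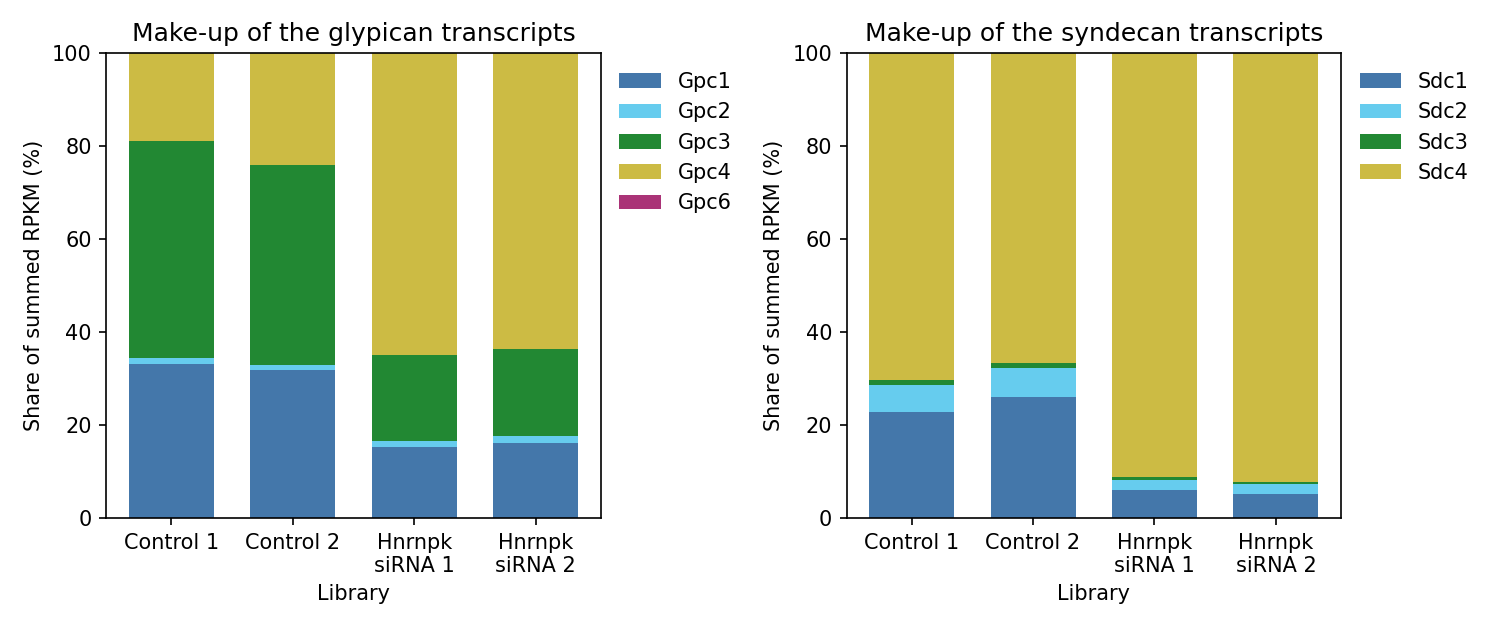
Share (%) of the summed RPKM of the glypicans (left) and of the syndecans (right) that each gene held in each of the 4 libraries. Gpc4 goes from 18.8% and 23.9% to 64.8% and 63.5% of the glypican sum, and Sdc4 from 70.2% and 66.5% to 91.2% and 92.2% of the syndecan sum.

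Sdc4 was the most abundant of the 10 genes in every library. It encodes the syndecan of focal adhesions, whose cytoplasmic tail binds and activates protein kinase C alpha. It was at 52.6 and 41.1 RPKM in controls, against 165 and 178 RPKM after Hnrnpk depletion. Its log2 change of 1.87 (SE 0.103) was the largest positive change of the 9 genes on this scale, and the controls differed more from each other than the treated libraries did on the log scale. Sdc1, the main syndecan of epithelia, went the other way, from 17.1 and 16.1 RPKM to 10.9 and 10.3 RPKM. Its log2 change was -0.62 (SE 0.0717), with no overlap.

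Sdc2, a syndecan of mesenchymal cells, was at 4.38 and 3.82 RPKM in controls, against 4.03 and 3.88 RPKM after Hnrnpk siRNA, values that overlap (log2 change -0.042, SE 0.0895). Sdc3, the syndecan of the nervous system, was at 0.856 and 0.778 RPKM and at 0.959 and 0.971 RPKM in the same order. Its treated libraries lay just above the controls, with a log2 change of 0.15 (SE 0.0942) that did not reach the threshold for a call. With each library's trend on GC content removed the change was 0.32, and it was called then and under quantile normalization. Sdc3 shares 421 bases of its longest transcript with the antisense gene Gm26716.

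The summed RPKM of the 4 syndecans was 74.9 and 61.8 in controls, against 181 and 193 after depletion. Sdc4 accounted for 68.4% ± 2.57 of it in controls and 91.7% ± 0.686 in depleted cells (SD, n = 2 each). The share of Sdc1 was 24.4% ± 2.25 and 5.68% ± 0.512 (SD, n = 2 each), a larger drop than that of its own RPKM because the sum was higher. In control cells the syndecan and glypican sums were of similar size; after Hnrnpk siRNA the syndecan sum was the larger in both libraries.

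Bgn, a matrix protein that binds TGF-beta and BMP proteins and collagen, was at 0.244 and 0.282 RPKM in controls, against 2.28 and 2.04 RPKM after Hnrnpk siRNA. Both treated libraries lay far above both controls, yet reached no more than 2.28 RPKM. Its log2 change of 1.80 (SE 0.0978) depends on the value added before the logarithm, being 2.64 with 0.1 RPKM added and 1.32 with 1 RPKM added. In every library Bgn remained less abundant than Sdc2 or Gpc1.

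**Figure D3:**
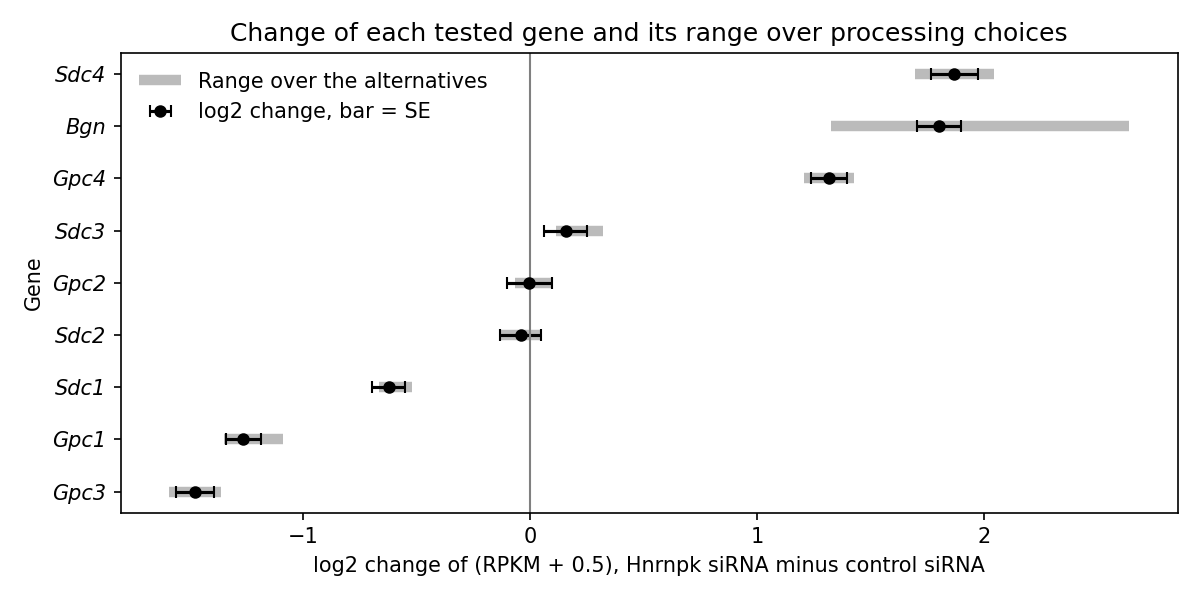
The log2 change of (RPKM + 0.5), Hnrnpk siRNA minus control siRNA, of the 9 genes that passed the filter; points are estimates, black bars SE and grey bars the range over the 12 alternative settings. The range is widest for Bgn, 1.32 to 2.64, and crosses 0 for Gpc2 and Sdc2 alone.

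By level, the order after control siRNA was Sdc4, Gpc3, Gpc1, Sdc1, Gpc4, Sdc2, Gpc2, Sdc3, Bgn and Gpc6, with group means from 46.8 to 0.0688 RPKM. Sdc1 and Gpc4 overlapped in that order, as did Gpc2 and Sdc3. After Hnrnpk siRNA the order was Sdc4, Gpc4, Gpc3, Sdc1, Gpc1, Sdc2, Bgn, Sdc3, Gpc2 and Gpc6, from 171 to 0.0304 RPKM, and no neighbours overlapped. Gpc3, Sdc1 and Gpc1 then all lay between 9.26 and 11.3 RPKM. Among 12485 other genes tested, those closest to Sdc4 by Euclidean distance of log2(RPKM + 0.5) over the 4 libraries were Tex19.1 (0.307), Phlda3 (0.450) and Grn (0.505). Those closest to Gpc3 were Nudcd3 (0.176), Sars2 (0.292) and Tst (0.360). The distance takes in level as well as change, and 4 libraries in 2 groups give many genes a similar profile.

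Gpc3, Gpc4 and Bgn are X-linked. The 428 X-linked genes tested had a median log2 change of 0.043, with 164 called higher and 138 lower, beside -0.015 over all genes tested. Gpc3 (GRCm38 chromosome X, 52272426 to 52613950) and Gpc4 (52053021 to 52165252) are neighbours on the minus strand, 107.2 kb apart. The other tested genes within 500 kb of either, a window chosen after the values were seen, were Usp26, Hs6st2, Ccdc160, Phf6 and Hprt. Usp26 fell from 1.33 and 1.28 RPKM to 0.749 and 0.556 RPKM (log2 change -0.65, limma adjusted p = 0.000488), and Ccdc160 from 6.94 and 8.24 RPKM to 5.37 and 5.66 RPKM (log2 change -0.42, limma adjusted p = 0.00262). Phf6 fell with a log2 change of -0.29 and Hprt rose with one of 0.21. Hs6st2, which passed the filter only through its control libraries, went from 0.726 and 0.769 RPKM to 0.428 and 0.421 RPKM (log2 change -0.43). In this stretch Gpc4 stood more than 2-fold higher and Gpc3 more than 2-fold lower, and both were chosen with these values in view.

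Around Bgn (chromosome X, 73483602 to 73495933, plus strand), the nearest tested gene was Haus7, 24.6 kb away, at 32.3 and 32.5 RPKM in controls and 35.1 and 35.8 RPKM after Hnrnpk siRNA (log2 change 0.13, limma adjusted p = 0.0858). Of the 18 tested genes within 500 kb of Bgn, 5 rose, 6 fell and 7 were not called. Renbp rose from 27.9 and 24.7 RPKM to 87.5 and 92.1 RPKM (log2 change 1.75, limma adjusted p = 1.37e-07), Slc6a8 rose with a log2 change of 1.07 and Pdzd4 fell with one of -1.53. Of the other genes, Gpc1 lies on chromosome 1 (92831645 to 92860779), Gpc2 on 5 (138273655 to 138280005), Gpc6 on 14 (116925315 to 117976544), Sdc1 on 12 (8771323 to 8793715), Sdc2 on 15 (32920723 to 33034935), Sdc3 on 4 (130792537 to 130826319) and Sdc4 on 2 (164424247 to 164443887). All 10 are annotated as protein coding, and these positions are GENCODE M21 on GRCm38, while the authors worked on mm9.

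Markers of other cell types moved in the same comparison. Of 8 tested primitive endoderm markers 6 were called higher (Pdgfra was tested only through its Hnrnpk siRNA libraries), and the summed level of the list of 10 was 24.0 to 25.2 RPKM in controls, against 65.9 to 68.5 RPKM after Hnrnpk depletion. All 5 tested trophectoderm markers were called higher, with sums of 30.5 to 36.0 RPKM and 68.5 to 73.1 RPKM over the 7 of the list in the table. Of all genes tested, 32.2% were called higher. Most of the trophectoderm sum was Krt8 and Krt18, with means of 12.3 and 17.4 RPKM in controls and 22.4 and 32.0 RPKM after Hnrnpk siRNA. Of those too low to be tested, Cdx2 lay higher. Elf5 lay lower, at 0.105 and 0.109 RPKM in controls, against 0.0608 and 0.0705 RPKM after Hnrnpk siRNA. None of these markers was at 0 in all libraries. The part of such cells in the levels of Sdc4, Gpc4 and Bgn was not tested, and in a bulk sample more cells of a type and more RNA per cell cannot be told apart. For fibroblasts or mesenchyme, where biglycan is abundant, the summed level of 10 markers was 9.64 to 11.6 RPKM in controls and 6.92 to 7.0 RPKM after Hnrnpk siRNA. Most of that sum was Thy1 and Col1a1, which fell from means of 6.05 and 2.57 RPKM to 2.25 and 1.79 RPKM. Twist1 rose, and Pdgfrb lay higher without being called, at means of 0.844 RPKM in controls and 0.977 RPKM after Hnrnpk siRNA. Col1a2, Col3a1, Postn, Dcn, Lum and Prrx1 were at most 0.0923 RPKM in all libraries. All 3 tested neuroectoderm markers were called lower, where 35.0% of all genes tested were. Neurog2, of the same list, was too low to be tested and lay higher, at no more than 0.0199 RPKM.

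The genes that build, edit and remove the sugar chains were then read from the same fit as 9 lists of 92 genes in all, none of them among the 10 genes. Of 60 tested, 22 rose and 20 fell (70.0% called, against 67.2% of all genes tested), with a median log2 change of 0.084 against -0.015. The lists had no common direction. Among the called genes, Hs3st1, Papss2 and Srgn passed the filter on low values only through their Hnrnpk siRNA libraries, and Hs6st2 and Bcan only through their control libraries, so they had to differ between groups to be tested at all.

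Chain assembly had the lowest share of called genes of the 9 lists. Of 10 tested genes for the linkage sugars and the polymer, 1 rose, 2 fell and 7 were not called (median log2 change 0.075). Xylt2, which adds the first xylose to the core protein, fell from 19.5 and 19.5 RPKM to 13.2 and 14.1 RPKM (log2 change -0.50, limma adjusted p = 0.000139). The heparan sulfate polymerase subunits went apart, Ext1 from 6.83 and 7.13 to 5.28 and 5.01 RPKM (log2 change -0.41, limma adjusted p = 0.00117) and Ext2 from 9.76 and 9.18 to 10.7 and 11.0 RPKM. The log2 change of Ext2 was 0.19 (limma adjusted p = 0.0387), and it was not called without control replicate 2 or without either Hnrnpk siRNA library (0.15 to 0.21).

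In chain modification, of 11 tested genes 3 rose and 6 fell, with a median log2 change of -0.23. The extracellular sulfatases, which strip 6-O-sulfate from finished chains at the cell surface, both fell. Sulf1 went from 17.9 and 19.9 RPKM to 5.80 and 5.91 RPKM (log2 change -1.61, SE 0.0766, limma adjusted p = 2.87e-07), and Sulf2 from 62.6 and 56.9 RPKM to 28.4 and 27.4 RPKM (log2 change -1.08, SE 0.0685, limma adjusted p = 1.32e-06). Neither pair of groups overlapped. Hs3st1, a 3-O-sulfotransferase, was at 0.482 and 0.495 RPKM in controls, against 1.99 and 2.09 RPKM after Hnrnpk siRNA (log2 change 1.36, SE 0.0917). It passed the filter only through its Hnrnpk siRNA libraries, so its place among the 3 that rose shows nothing further. Hs6st2, counted among the 6 that fell, passed only through its control libraries. Hs2st1, the 2-O-sulfotransferase, rose from 10.9 and 11.3 RPKM to 15.8 and 16.0 RPKM (log2 change 0.50).

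Of 7 genes supplying activated sugar and sulfate, 4 rose and none fell in the fit (median log2 change 0.29). Slc35b3, a Golgi carrier of the sulfate donor PAPS, went from 2.60 and 2.72 RPKM to 4.74 and 5.33 RPKM (log2 change 0.81, limma adjusted p = 3.49e-05). Papss2, which makes PAPS, went from 0.306 and 0.278 RPKM to 0.874 and 0.911 RPKM. It is 1 of the 4 that rose, but passed the filter only through its Hnrnpk siRNA libraries. Among 7 tested lysosomal enzymes of heparan sulfate breakdown 3 rose and 2 fell (median log2 change 0.012). Ids and Idua, which act in sequence on the chain end, rose with log2 changes of 0.64 and 0.63, and Sgsh and Gusb fell with -0.86 and -0.50.

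Of 6 tested genes whose products act on core proteins or bind them at the surface, 3 rose and 2 fell (median log2 change 0.14). Notum, a secreted hydrolase that binds glypicans and inactivates Wnt proteins, fell from 8.03 and 9.32 RPKM to 4.63 and 4.5 RPKM (log2 change -0.85, limma adjusted p = 2.34e-05). The matrix metalloproteinases went apart: Mmp9 rose from 1.22 and 1.20 to 2.46 and 2.71 RPKM and Mmp2 fell from 10.4 and 7.72 to 5.39 and 5.36 RPKM, with log2 changes of 0.85 and -0.69. Adam10, a sheddase of syndecans, had a log2 change of 0.25 (limma adjusted p = 0.0241), but was not called without a filter on low values, with GC trends removed, without control replicate 2 or without either Hnrnpk siRNA library (0.16 to 0.28).

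The proteins that grip syndecan tails also went both ways, 3 of 6 tested higher and 2 lower (median log2 change 0.32). Sdcbp, encoding syntenin, rose from 9.51 and 9.21 RPKM to 13.4 and 13.3 RPKM, and Pdcd6ip, encoding its partner ALIX, from 36.0 and 32.7 RPKM to 49.9 and 48.1 RPKM. Their log2 changes were 0.49 and 0.51 (limma adjusted p = 0.000161 and 0.000132). Gipc1, an adaptor that binds the end of the tail, fell from 72.2 and 63.0 RPKM to 37.8 and 40.5 RPKM (log2 change -0.78), and Cask, a scaffold at cell junctions, fell with a log2 change of -0.51.

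Other heparan sulfate core proteins went both ways, 3 of 6 tested higher and 3 lower (median log2 change 0.18). Those of the list too low to be tested all lay higher with no overlap, at no more than 0.539 RPKM. How often other genes below the filter did so was not counted. More genes were above 0 RPKM after Hnrnpk siRNA, 18019 and 18077, than in controls, 17566 and 17657. Spock2, a testican, fell from 5.10 and 4.05 RPKM to 1.19 and 1.23 RPKM (log2 change -1.56, limma adjusted p = 2.30e-06), and Agrn, the basement membrane proteoglycan agrin, from 37.6 and 37.6 RPKM to 24.7 and 25.0 RPKM (log2 change -0.59). Tgfbr3, encoding betaglycan, rose from 0.581 and 0.477 RPKM to 1.49 and 1.29 RPKM (log2 change 0.88), and Srgn, the proteoglycan of secretory granules, from 0.494 and 0.433 RPKM to 1.16 and 1.72 RPKM (log2 change 1.0). Srgn, 1 of the 3 called higher, passed the filter only through its Hnrnpk siRNA libraries. Of the small leucine-rich relatives of biglycan, all 9 in the list (Dcn, Lum, Fmod, Aspn, Prelp, Omd, Ogn, Kera and Epyc) were at most 0.0923 RPKM in every library. Bgn was at 0.244 and 0.282 RPKM in controls, against 2.28 and 2.04 RPKM after Hnrnpk siRNA. Ncan and Bcan, chondroitin sulfate proteoglycans of brain, fell with log2 changes of -1.11 and -1.12, and Vcan rose with 0.44. Bcan passed the filter only through its control libraries. Of the genes that process biglycan or receive it, Bmp1, the protease that trims its propeptide, had a log2 change of 0.32 (limma adjusted p = 0.0100), and was not called without either Hnrnpk siRNA library (0.30 and 0.33).

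**Figure D4:**
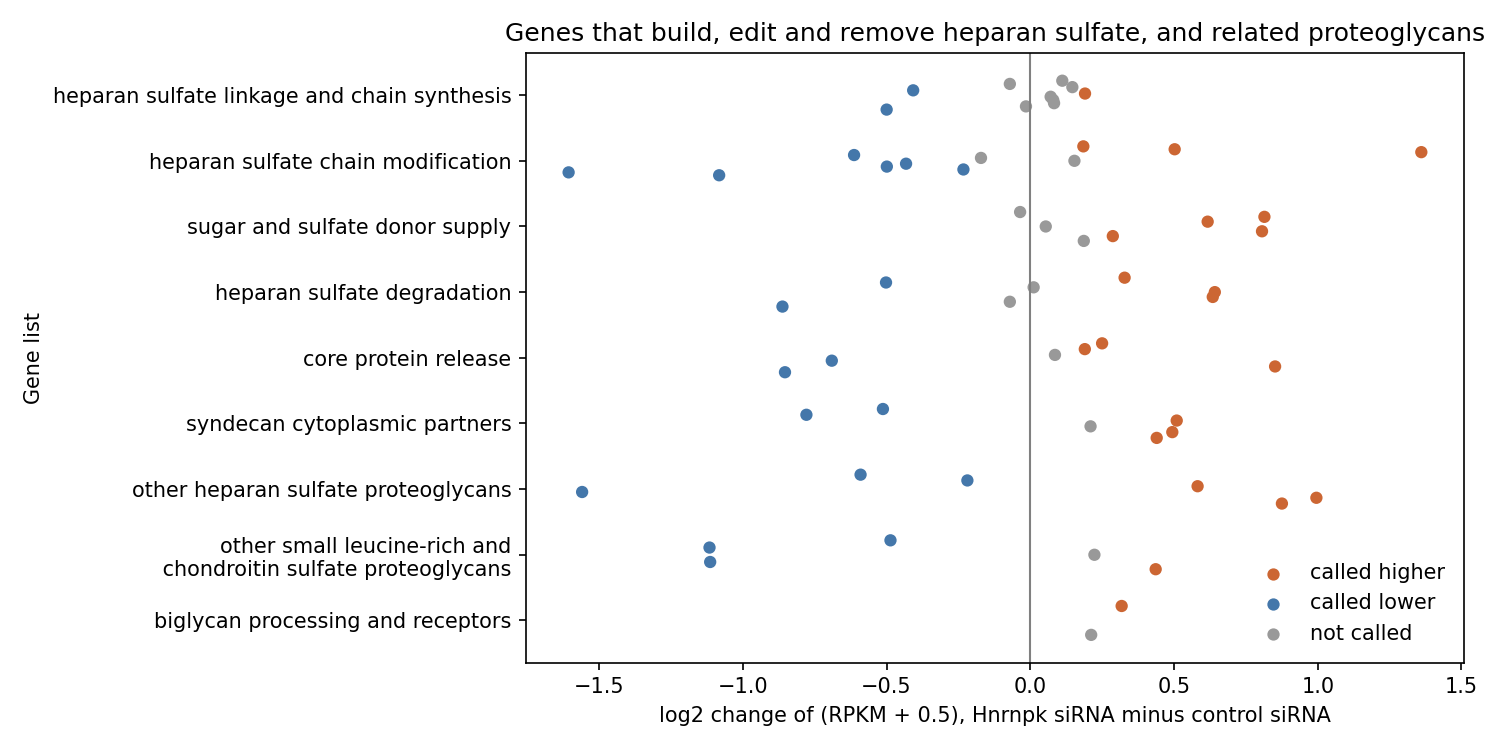
The log2 change of (RPKM + 0.5), Hnrnpk siRNA minus control siRNA, of each tested gene of the 9 lists; each point is a gene, coloured by its call in the limma fit. Chain modification runs from Sulf1 at -1.61 to Hs3st1 at 1.36, and chain assembly spans the narrowest range of the lists with at least 6 tested genes. Hs3st1 passed the filter on low values only through its Hnrnpk siRNA libraries, and the next highest gene of its list is Hs2st1 at 0.50.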

How the data were processed

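Gene-level RNA-seq values of 4 libraries were used. The authors deposited RPKM per gene, 1 column for each library; per the submitters' processing notes, BWA, SAMtools and the mouse build mm9 were used, with no role or version stated. For the counting tool, its annotation, strand use and multiply matching reads: not given in the sources used here. Labels describe the RNA both as ribosome-depleted and as poly(A)-selected.

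Values were compared as log2(RPKM + 0.5) with limma 3.58.1 in R 4.3.3 (mean-variance trend, two-sided moderated test), for 12486 genes averaging 0.5 RPKM or more. Folds of low genes come out too small on this scale. Benjamini-Hochberg adjustment ran over all genes tested, with calls under 0.05. On simulated data with 200 of 12486 genes changed, 17 of 215 calls of the fit were false. A far larger share of genes was called in the real data, so the simulation does not measure the error of these calls. With 2 libraries a group, an exact permutation test of 1 gene cannot give p below 0.333, so calls rest on variance pooled across genes. Each printed SE comes from the same fit and is likewise drawn toward the variance of other genes. Low RPKM were searched for the spacing of single reads, which gave relative but not absolute depth. Positions, exon overlap and GC content came from GENCODE M21 (20551 of 22138 identifiers matched), and shared sequence from BLAST at 95% identity over at least 100 bases.

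The genes, lists and tests were chosen with earlier results of these data known. Named are all 10 genes, Hnrnpk, Gpc5, up to 2 rises and 2 falls per list among called genes with no overlap between groups, and the 3 genes closest to the members with the largest rise and fall; genes of positional windows, markers and small leucine-rich relatives are named besides. Pxylp1, Tfap2c, Sox1, Map2 and Xist were not matched by symbol and are not analysed here. Promoter windows that overlap the GENCODE gene are not printed.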

Additional observations from a re-analysis of the deposited data

How the results depend on the processing

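The 12 alternatives were an added 0.1 or 1 RPKM, filtering nothing or at an average of 1 RPKM, median-of-ratios scaling, quantile normalization, GC trends removed, the replicate number as a block, and leaving out each library. The genes called higher among the 10 numbered 3 or 4 and those called lower 3 or 4. The 4th higher was Sdc3 under quantile normalization or with GC trends removed, and the 4th lower was Gpc6 with no filter, at a level of at most 0.0689 RPKM. The log2 changes of Gpc1, Gpc3, Gpc4, Sdc1, Sdc4 and Bgn kept their sign in all 12, a description only, since these values were in view when the genes were chosen. With 1 library left out, the lone library of its group is assumed to vary like the other group. Without 1 library at a time Sdc4 lay between 1.69 and 2.04, Gpc3 between -1.59 and -1.36 and Gpc4 between 1.21 and 1.43. Of 106 recomputed changes 8 moved by more than the SD between replicates, with GC trends removed (Gpc1 -1.09, Gpc2 0.10, Sdc1 -0.52, Sdc3 0.32), another added value (Bgn, Sdc3) or quantile normalization (Sdc3 0.22). Removing GC trends gave more genes higher than lower over the table, 4415 and 4109 against 4025 and 4371. With the replicate block 4162 and 4460 genes were called; the numbers share no stated batch, deviations of same-numbered libraries correlated at 0.027, and the block changed no call among the 10 genes. Leaving out a library gave 3101 to 4072 genes higher and 3577 to 4444 lower, and 15 to 23 of the list genes higher. Of the 29 named list genes, 22 kept their call under every alternative; Bcan, Papss2, Srgn and Tgfbr3 lost it only where they fell under the filter, and Adam10, Bmp1 and Ext2 lost it otherwise. The reads behind each value are not known, so the counting error of low values such as those of Gpc6 could not be given.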
